A study of Mus musculus with 2 samples.

Results

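Oxidative phosphorylation genes were examined in mediastinal lymph node cells of mice with ovalbumin-induced asthma, with and without butyrate. The genes were taken by symbol: the mitochondrially encoded mt-Nd, mt-Co, mt-Atp and mt-Cytb genes, the nuclear genes with symbols that start with Ndufa, Ndufb, Ndufc, Ndufs, Ndufv, Uqcr, Cox4 to Cox8 or Atp5, and Sdha to Sdhd. This rule took 106 of the 31053 rows of the count tables. Of these, 13 are the protein-coding genes of the mitochondrial genome, 85 are nuclear genes named as respiratory chain or ATP synthase subunits, and 8 are Ndufaf genes, which encode assembly factors of complex I and share the Ndufa prefix. The rule leaves out Cyc1 and Cycs, which carry electrons through and after complex III.

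The study took total cells from the mediastinal lymph nodes (MedLNs) that drain the lung of WT C57/B6J mice and measured their RNA with 10x Genomics single-cell 3′ sequencing. The first library, OVA, came from the OVA-induced asthma model without butyrate, and the second, C4, from the same model with butyrate (C4). Each library pooled 4 mice, so there is 1 library per condition, and no test between conditions was possible. Cell groups of the same library form a pair, and with 2 such pairs they were also tested over both libraries. The study's methods give a single age range, of young to young adult mice, for all its experiments, with animals matched by age and sex. The route of butyrate for this experiment was not given in the sources used here, and no library of mice without asthma was analysed here.

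Oxidative phosphorylation couples the oxidation of NADH and succinate to ATP synthesis across the inner mitochondrial membrane. Complexes I, III and IV pump protons, complex II feeds electrons from succinate without pumping, and complex V, the ATP synthase, uses the proton gradient. All complexes except complex II combine subunits made inside the mitochondrion from its own genome with subunits encoded in the nucleus and imported. Lymphocytes that leave rest and divide are known to build up mitochondrial mass.

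The 13 mitochondrial genes fall to 7 of complex I, 1 of complex III (mt-Cytb), 3 of complex IV and 2 of complex V. The 85 nuclear genes comprise 36 of complex I, 4 of complex II, 8 of complex III, 20 of complex IV and 17 of complex V. Ndufa4 and Ndufa4l2 were counted with complex IV, to which the Ndufa4 protein belongs, and Cox7a2l and Atp5s were counted by their symbols. A level here is given in CPM, the unique molecular identifiers (UMIs) of a gene per 1000000 UMIs of a group of cells, a scale on which 1 captured transcript gives about 1 count whatever its length.

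Single molecules were assigned to genes by their 3′ ends, and 12 of the 106 members overlap another listed gene on the same strand, so that their counts may be shared. In the mitochondrial genome the mt-Atp8 and mt-Atp6 reading frames share 43 bases at chrM:7927-7969 (GRCm38, plus strand), and mt-Nd4l and mt-Nd4 share 7 bases at chrM:10167-10173. Each pair is known to be carried on 1 shared RNA, so the counts of mt-Atp8 and mt-Nd4l below are not those of a separate message. The shared bases are shown in capitals with 10 bases on each side, from the reference genome.

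mt-Atp8 and mt-Atp6: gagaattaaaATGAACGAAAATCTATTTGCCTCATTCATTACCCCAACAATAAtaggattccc

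mt-Nd4l and mt-Nd4: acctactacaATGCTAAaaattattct

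Among nuclear members, promoters are shown for Cox6a1, Ndufs5 and Cox7a2l. Cox6a1 holds 2 kinds of motif searched. Ndufs5 had ratios of cycling over other cells above 0 in each depth bin examined, not all of them beyond counting error. Cox7a2l went the other way in T cells. The windows run from 250 bases before to 50 after an annotated start of transcription (RefSeq, GRCm38.p6, all on the minus strand). Capitals mark matches on either strand to the palindromic core recognised by NRF1, such as GCGCATGCGC with 1 free base, or to CCGGAAG, the core of ETS family factors such as GABP. The Cox6a1 window is chr5:115348909-115349208, the Ndufs5 window chr4:123718137-123718436 and the Cox7a2l window chr17:83514284-83514583.

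Cox6a1: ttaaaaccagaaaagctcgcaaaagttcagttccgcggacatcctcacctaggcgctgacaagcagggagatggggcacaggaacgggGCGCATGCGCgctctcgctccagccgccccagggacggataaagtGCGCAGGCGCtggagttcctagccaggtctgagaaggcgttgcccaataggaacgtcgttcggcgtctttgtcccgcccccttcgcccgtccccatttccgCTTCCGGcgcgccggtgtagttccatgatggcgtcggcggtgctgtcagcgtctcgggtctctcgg

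Ndufs5: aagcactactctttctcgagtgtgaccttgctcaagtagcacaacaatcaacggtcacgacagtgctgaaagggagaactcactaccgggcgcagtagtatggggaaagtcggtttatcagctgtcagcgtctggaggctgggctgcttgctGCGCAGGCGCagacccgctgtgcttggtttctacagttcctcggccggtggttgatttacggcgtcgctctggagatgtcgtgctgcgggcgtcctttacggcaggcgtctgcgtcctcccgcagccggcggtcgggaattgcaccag

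Cox7a2l: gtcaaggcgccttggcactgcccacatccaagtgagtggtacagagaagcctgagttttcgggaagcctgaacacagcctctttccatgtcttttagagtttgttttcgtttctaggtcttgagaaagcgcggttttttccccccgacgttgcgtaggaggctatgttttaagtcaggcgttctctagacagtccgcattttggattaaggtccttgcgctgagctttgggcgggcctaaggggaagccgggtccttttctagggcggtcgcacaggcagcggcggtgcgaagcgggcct

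A window was found for 69 of the 85 nuclear members, one per gene, the first listed where a gene has several. The NRF1 core stood in 16 of the 69 windows (23.2%) and in 4.78% of the 27025 promoter windows of the same length. The ETS core stood in 15 (21.7%, against 9.12% of all windows) and AANATGGCG, the core of YY1, in 8 (11.6%, against 2.51%). At least 1 of the 3 motifs stood in 34 member windows, or 49.3%, and in 14.7% of all windows. A short ETS core can be met in any CpG-rich promoter, and these matches describe letters in a window, not binding.

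The 2 libraries held 9681 (OVA) and 8932 (C4) cells with 59176459 and 58381292 UMIs and median depths of 5140 and 5651 UMIs per cell. Cells with over 10% mitochondrial UMIs, under 200 genes or the highest doublet scores were removed, which left 8774 and 8013. The libraries share 25 cell barcodes, 22 of them among the cells kept. Cells were grouped by UMIs of Cd79a, Cd3e, Cd4, Cd8a and Mki67. Cells with Cd79a and none of Cd3e, Cd4 or Cd8a are called B cells, those with Cd3e and without Cd79a T cells, and those of the T cells with Cd4 or Cd8a alone CD4+ and CD8+ T cells; a cell with a Mki67 UMI was called cycling and kept apart. The B groups held 18686 and 20238 CPM of 4 other B cell markers against 59.3 and 56.8 of 4 T cell markers, and the T groups 2775 and 2722 of the T cell markers against 203 and 153 of the B cell markers. All these marker genes were detected in all these groups.

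The mitochondrial genes together made up 3.45% to 4.34% of the UMIs in non-cycling B, CD4+ and CD8+ T cells and the nuclear subunits 1.50% to 1.65%. In the OVA library, B cells (3978 cells) held 4.20% mitochondrial and 1.50% nuclear UMIs. CD4+ T cells (920 cells) held 3.45% and 1.63%, and CD8+ T cells (1438 cells) 3.53% and 1.58%. In the C4 library, B cells (3782 cells) held 4.34% and 1.50%, CD4+ T cells (822 cells) 3.61% and 1.65%, and CD8+ T cells (1450 cells) 3.70% and 1.59%. The order of the lineages was the same in both libraries for both gene sets. The exact 95% Poisson interval of the mitochondrial share of B cells spanned 4.19% to 4.21% in OVA. All such intervals cover counting error only and not differences between mice.

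**Figure D1:**
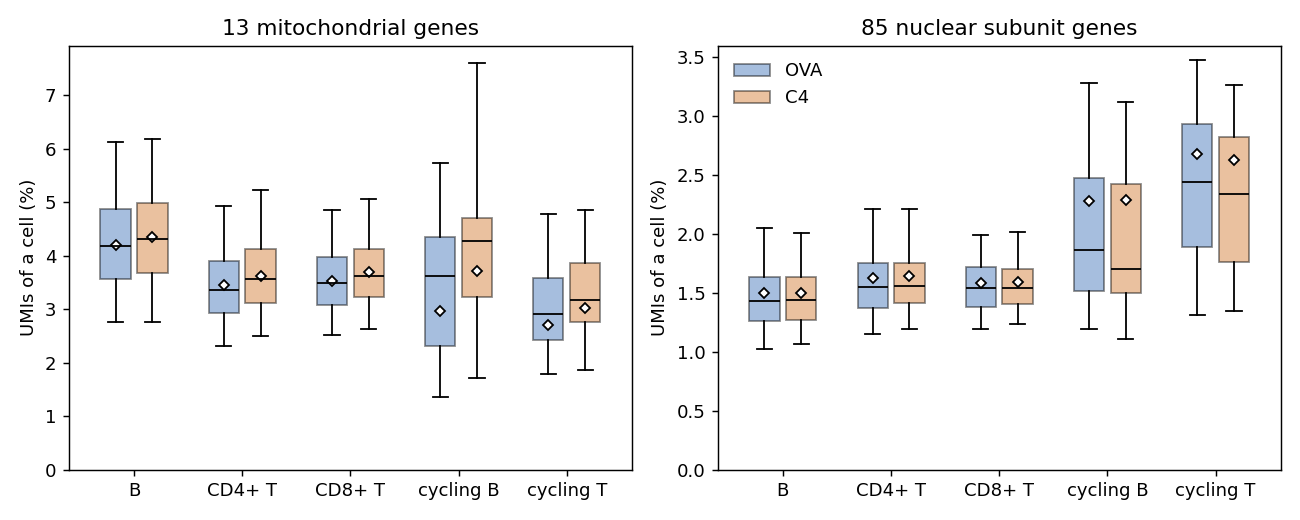
Share of each cell's UMIs (percent, y axis) in the 13 mitochondrial genes (left) and the 85 nuclear subunit genes (right), by cell group and library (OVA blue, C4 orange). Boxes span the 25th to 75th percentile of cells with the median as a line, whiskers the 5th to 95th percentile, and diamonds the share of the group's summed UMIs; B cells have the highest medians on the left (4.18% and 4.30%) and cycling T cells on the right (2.44% and 2.34%).

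Individual cells of a lineage varied widely. Across B cells of the OVA library the 5th, 50th and 95th percentiles of the mitochondrial share were 2.76%, 4.18% and 6.11%, and those of the nuclear share 1.02%, 1.43% and 2.05%. In CD8+ T cells of the same library they were 2.52%, 3.49% and 4.86%, and 1.19%, 1.54% and 1.99%. The B and T cell distributions overlap over most of their range. The mitochondrial and nuclear shares of a cell were weakly and inversely related, with Spearman rho between -0.19 and -0.07 across the 822 to 3978 cells of the B, CD4+ and CD8+ groups; both shares are parts of the same total, and each cell contributes few nuclear UMIs.

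Among the mitochondrial genes, mt-Atp6, a proton channel subunit of complex V, had the highest level, with 8664 (OVA) and 9022 (C4) CPM in B cells, 7736 and 8222 in CD4+ T cells and 7732 and 8146 in CD8+ T cells. The catalytic core subunits of complex IV followed, mt-Co1 with 7046 and 7309.9, mt-Co3 with 6855 and 7173 and mt-Co2 with 6482 and 6585 in B cells. With mt-Cytb, the cytochrome b of complex III, at 4348 and 4579, these 5 genes gave 79.5% to 81.9% of the mitochondrial UMIs in the 3 lineages. The 7 complex I genes were lower, from 2505 and 2484 for mt-Nd2 in B cells to 56.7 and 54.8 for mt-Nd6, the one member transcribed from the other strand. mt-Nd1 (2472 and 2587 in B cells) and mt-Nd4 (2115 and 2152) stood near mt-Nd2, and mt-Nd5 (589 and 613), mt-Nd3 (422 and 408) and mt-Nd4l (326 and 305) below them. mt-Atp8 stood at 152 and 133. Since the genes of a polycistronic transcript differ in how often a 3′ tag is captured, these orders rank captured ends and not genes' output.

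**Figure D2:**
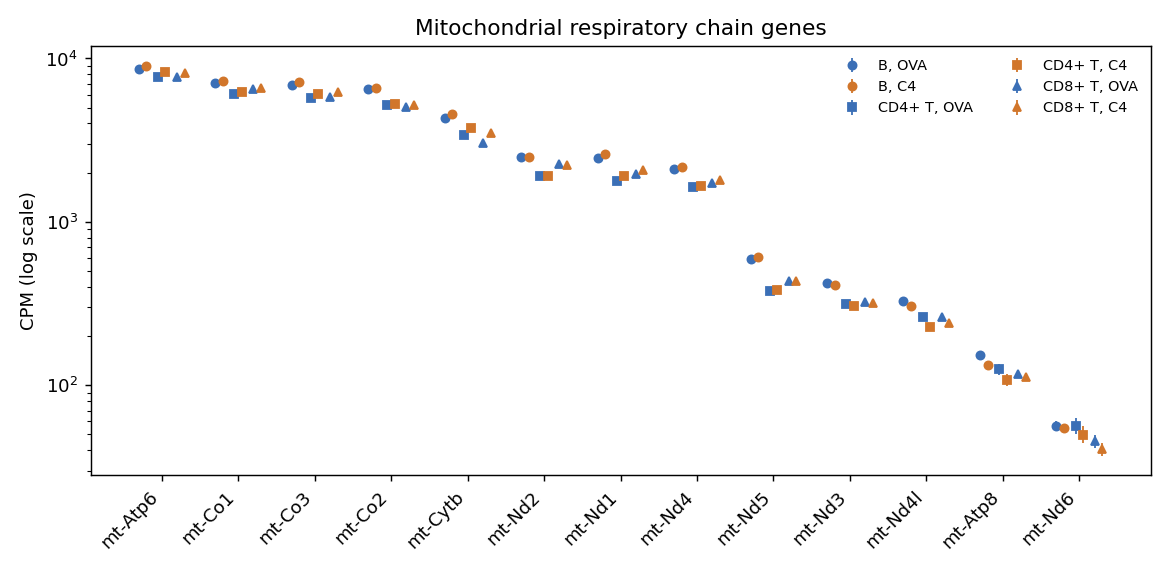
Levels of the 13 mitochondrial genes (CPM, log scale) in B, CD4+ T and CD8+ T cells of the OVA (blue) and C4 (orange) libraries, with exact Poisson intervals as bars, mostly smaller than the symbols. mt-Atp6 is highest at 7732 to 9022 and mt-Nd6 lowest at 40.5 to 56.7, and B cells lie above T cells for most genes.

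The nuclear subunit with the highest mean level over the lineages was Uqcrh, the hinge subunit, in complex III, at 627 to 813 CPM. In complex IV it was Cox4i1, the widely expressed isoform of subunit IV, at 700.3 to 804, and in complex V Atp5e, the epsilon subunit of ATP synthase, at 618 to 667. In complex I it was Ndufa13, at 226 to 301. In complex II, Sdhb, the iron-sulfur subunit of succinate dehydrogenase, stood at 87.3 to 101, Sdha, its flavoprotein, at 85.6 to 101, and the membrane anchors Sdhd and Sdhc at 37.8 to 47.8 and 29.3 to 40.0. Nuclear complex I, III, IV and V subunits as sets made up 0.422%, 0.157%, 0.431% and 0.465% of B cell UMIs in OVA, and the 4 complex II subunits 0.0248%. The 8 assembly factors made up 0.0203%, with Ndufaf8 at 71.2 and Ndufaf5 at 6.2 CPM. Capture of 3′ ends differs between transcripts and was not corrected, so these levels do not rank the subunits' transcripts by amount with certainty.

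Several complex IV and V subunits have isoform genes. Cox4i1 was found in 94.7% (OVA) and 96.1% (C4) of all cells kept, whereas Cox4i2, the isoform known from lung and from low oxygen, gave 11 and 6 UMIs in all. In OVA 10 of the 11 came from 6 of the 42 cells with Jchain and Sdc1 or Tnfrsf17, genes of plasma cells, and in C4 0 of 6 from 12 such cells. The 42 cells held 2.08% of the UMIs of the OVA cells kept. Cox8a was found in 91.8% and 93.5% of cells, while the muscle and testis forms Cox8b and Cox8c gave 0 UMIs, which allows a share of cells with a UMI of up to 0.0342% and 0.0374%. Cox7b2 also gave 0 UMIs. Ndufa4l2 gave 5 and 0, of which 4 came from 3 of the same 42 cells. Cox7a1, the heart and muscle form, gave 32 and 25 UMIs and Cox6b2 60 and 57, each in under 1% of cells (0.342%, 0.287%, 0.650% and 0.649%). The part of free RNA in the counts of Cox7a1 and Cox6b2 was not tested. Of the 3 genes that encode the same mature c-ring protein of ATP synthase, Atp5g2 gave 58.4% of UMIs in B cells of both libraries, Atp5g1 24.7% and 24.2%, and Atp5g3 16.9% and 17.4%, and in CD8+ T cells the order was the same (53.8% and 54.5%, 27.4% and 26.8%, 18.7% and 18.7%). Reads of processed pseudogenes of these and other subunits, which exist in the mouse genome, may be counted with them or lost.

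Cox6a2, the heart and muscle isoform of Cox6a1 (ENSMUSG00000030785, chr7:128205435-128206387, GRCm38, minus strand), was also rare and held by few cells. It gave 90 UMIs in only 9 cells of OVA and 179 UMIs in 20 cells of C4, up to 26 in a single cell. Of the cells kept that held at least 3 UMIs of Siglech, a marker of plasmacytoid dendritic cells, 7 of 9 in OVA and 11 of 12 in C4 had Cox6a2. Their levels were 896 (exact Poisson interval 719 to 1104) and 1245 (1050 to 1464) CPM, against 0.0381 and 0.652 in all other cells. In these cells Cox6a2 gave 73.3% and 85.3% of the UMIs of Cox6a1 and Cox6a2 together, against 0.0191% and 0.321% elsewhere. Bst2 was found in 9 and 12 of these cells and Ccr9 in 9 and 11, both known from plasmacytoid dendritic cells. Bst2 was also found in 4211 of the 8765 and 3170 of the 8001 other cells, and Ccr9 in 724 and 675. Those other cells had lower median depths, 5074 and 5647 against 9557 and 9879.5 UMIs. The Siglech group was chosen after the values were seen. Of the 34 Cox6a2 UMIs outside it in C4, found in 9 cells, 26 came from 1 cell. The nuclear subunit share of the 9 and 12 cells was 2.23% and 2.13%, against 1.64% and 1.62% in the other cells.

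The comparison between libraries asked whether butyrate treatment went with another level of respiratory chain RNA. In B, CD4+ and CD8+ T cells no member differed by 0.32 log2 units or more, the size used below to call a difference. Of the 106 members, 97 had at least 50 UMIs over the 2 libraries in each lineage, 13 mitochondrial, 76 nuclear subunits and all 8 assembly factors; the 9 left out were Cox4i2, Cox6a2, Cox6b2, Cox7a1, Cox7b2, Cox8b, Cox8c, Ndufa4l2 and the second Atp5o row (ENSMUSG00000116933), a long readthrough gene model with 0 UMIs in these groups. In B cells 0 of the 97 were higher and 0 lower in C4 by this measure, where 0.528% and 0.91% of the 10218 genes with as many UMIs were. In CD4+ T cells the counts were again 0 and 0, with 1.74% and 2.78% of 8344 genes, and in CD8+ T cells 0 and 0, with 0.478% and 1.1% of 9201 genes. Few genes of any kind passed this size. In CD4+ T cells, which hold the fewest UMIs of the 3 lineages, the count of 0 did not hold under several alternatives: it became 3 higher and 1 lower with 1 CPM added, 3 higher with at least 2 UMIs of each gate marker, 1 and 1 on a total without ribosomal, mitochondrial and immunoglobulin genes, and 3 and 5 with each cell thinned to 2000 UMIs. Thinning also gave 1 lower in CD8+ T cells, and in CD4+ T cells 1 was lower with doublets kept and 1 in cells of 3000 to 8000 UMIs. The share of all genes past this size was not counted under these alternatives, so whether the changes are particular to the members was not tested.

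Below that size, the mitochondrial sum was slightly higher in C4 in each lineage. The log2 ratio of C4 over OVA was 0.05 in B cells (95% counting interval 0.04 to 0.05), 0.07 in CD4+ T cells (0.06 to 0.08) and 0.07 in CD8+ T cells (0.06 to 0.07). The nuclear sum differed less, with a counting interval of -0.01 to 0.01 in B cells and log2 ratios of 0.02 in CD4+ and 0.01 in CD8+ T cells. The intervals hold only molecule counting, and with 1 library of 4 pooled mice each, a difference between treatments and one between 2 preparations cannot be told apart. More cells of C4 than of OVA exceeded 10% mitochondrial UMIs before filtering (3.58% against 1.82%), and its median depth was higher; their part in the mitochondrial difference was not tested, but with cells of up to 5% kept alone the ratios were 0.03, 0.05 and 0.06. The 4 myeloid markers, all detected in each of these groups, summed to 38.8 (OVA) and 116 (C4) CPM in B cells, 8.86 and 85.4 in CD4+ and 5.13 and 2.16 in CD8+ T cells. Malat1, a nuclear RNA, took 2.30% and 2.21%, 2.23% and 2.002%, and 1.63% and 1.54% of UMIs. The part of these in the difference was not tested either. On the total without ribosomal, mitochondrial and immunoglobulin genes the ratio was 0.0078 in B cells, 0.08 in CD4+ and 0.07 in CD8+ T cells.

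The counts assigned to the single mitochondrial genes did not move as a block. mt-Cytb had a log2 ratio of 0.07 in B cells, 0.16 in CD4+ and 0.18 in CD8+ T cells, from 3059 CPM in OVA to 3474 in C4 for the last. mt-Atp8 was lower in C4, at -0.19, -0.21 and -0.07, as was mt-Nd4l at -0.09, -0.19 and -0.12. Each shares its RNA with mt-Atp6 or mt-Nd4, so these values are not those of separate messages. mt-Atp6 itself was higher in C4 in each lineage. In all, 8 of 13 mitochondrial genes lay above 0 in B cells, 9 in CD4+ and 7 in CD8+ T cells, and the 13 include mt-Atp8 and mt-Nd4l. How many of all genes lay above 0 was not counted. Complex III thus had its mitochondrial gene higher. Its 8 nuclear subunits as a sum had log2 ratios of -0.07 in B, -0.02 in CD4+ and -0.05 in CD8+ T cells. The interval in CD4+ T cells included 0 (-0.06 to 0.02). Uqcrh alone had -0.15, -0.08 and -0.05. Single subunits did not all follow the sum: 4, 6 and 2 of the 8 lay above 0.

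The sum of the nuclear complex V subunits lay slightly above 0, with log2 ratios of 0.03, 0.05 and 0.04. Of its 16 genes with a value 12, 11 and 12 were above 0. The median ratio of all genes was itself 0.03 in B, 0.01 in CD4+ and 0.01 in CD8+ T cells. The share of all genes above 0 was not counted, so such counts, here and for complex I below, are descriptions. Atp5b, the catalytic beta subunit, had 304 and 335 CPM in B cells (OVA and C4), 314 and 356 in CD4+ and 335 and 366 in CD8+ T cells. Atp5a1, the alpha subunit, had 248 and 269.9, 262 and 295, and 259.8 and 277. Atp5o (ENSMUSG00000022956), a stalk subunit, had 177 and 198, 194 and 209.5, and 193 and 216. The log2 ratios of these genes were 0.09 to 0.18. Atp5g2, a gene of the c-ring, had 541 and 597 in CD8+ T cells (0.14), and Atp5g3 had 163 and 175 in B cells (0.10) but 221 and 208 in CD4+ T cells (-0.08). Other members of the complex were lower in C4. Atp5k had 181 and 167 in B cells (-0.11), 194 and 188 in CD4+ and 173 and 164 in CD8+ T cells. Atp5j2 had 308 and 282 in CD8+ T cells (-0.12) and 295 and 296 in CD4+ T cells, and Atp5e had 667 and 638 in B cells (-0.06). The complex II sum had a log2 ratio of 0.14 in B cells (0.09 to 0.20), -0.0025 in CD4+ (-0.11 to 0.10) and 0.07 in CD8+ T cells (-0.0033 to 0.15), with Sdha at 85.6 and 97.6 CPM in B cells and at 101 and 99.8 in CD4+ T cells. The single highest nuclear ratio among members over 100 CPM in a library was that of Ndufv2, a complex I electron input subunit, in CD4+ T cells, at 98.0 and 119.9 CPM (log2 ratio 0.27, 0.12 to 0.46). The lowest was that of Ndufa13, also of complex I, in CD8+ T cells, at 301 and 268 (-0.16, -0.24 to -0.10). Of the 36 complex I genes 23, 19 and 22 lay above 0. Among them Ndufs8 had 111 and 121 CPM in B cells (0.12), Ndufa10 90.7 and 106 in CD4+ T cells (0.20) and Ndufc2 97.0 and 107 in CD8+ T cells (0.13). Ndufa6 had 238 and 219 in B cells (-0.12) and Ndufa3 204 and 183 in CD4+ T cells (-0.15). The intervals of Ndufa11 in CD4+ T cells (136 and 126, -0.27 to 0.04) and of Ndufv3 in CD8+ T cells (131 and 122, -0.21 to 0.0038) include 0.

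**Figure D3:**
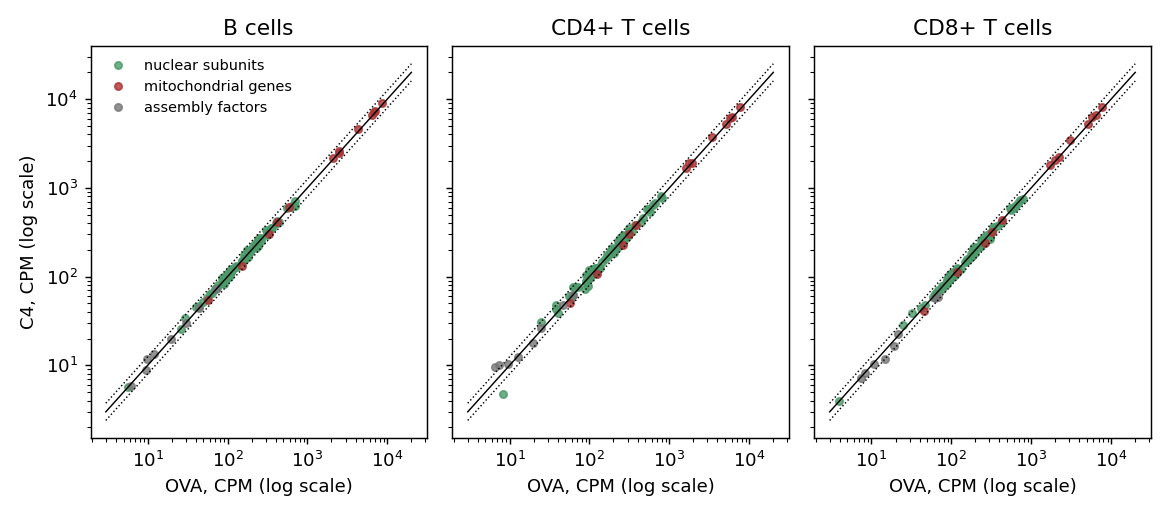
Level of each member tested in the C4 library (y axis) against the OVA library (x axis), both in CPM on log scales, for B, CD4+ T and CD8+ T cells; nuclear subunits are green, mitochondrial genes red, assembly factors grey. The solid line marks equal levels and the dotted lines 0.32 log2 units before 10 CPM are added to both levels, as was done for every ratio of single genes. With the 10 added, 0 of the 97 members differed by 0.32 log2 units in any of the 3 panels.

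The cycling cells differed more between libraries, with fewer cells. Cycling B cells (118 in OVA, 59 in C4) held 2.97% and 3.71% mitochondrial UMIs, a log2 ratio of 0.32 (0.30 to 0.34), with 2.28% and 2.29% nuclear UMIs. Of those cells, 53 and 20 held a Jchain UMI, the joining chain gene of plasma cells and some activated B cells, and the 4 plasma cell markers summed to 7739 and 5493 CPM against 828 and 485 in non-cycling B cells. Without the Jchain cells, a choice made after seeing the data, the mitochondrial shares were 3.83% and 4.28% (65 and 39 cells) and the nuclear shares 1.96% and 2.06%. The 4 myeloid markers were also higher in the C4 cycling B cells, at 1456 against 225 CPM, and their part in the difference was not tested. Cycling T cells (86 and 60) held 2.71% and 3.01% mitochondrial and 2.68% and 2.63% nuclear UMIs.

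Between lineages, B cells had more mitochondrial and slightly fewer nuclear respiratory chain UMIs than T cells in both libraries. The log2 ratio of the mitochondrial sum, B over CD4+ T cells, was 0.28 in OVA and 0.26 in C4, and B over CD8+ T cells 0.25 and 0.23. For the nuclear sum it was -0.12 and -0.13, and -0.08 and -0.08. The nuclear to mitochondrial ratio of UMIs, which does not depend on the rest of the RNA, was 0.357 and 0.346 in B cells, 0.471 and 0.456 in CD4+ T cells and 0.448 and 0.430 in CD8+ T cells. B cells were lowest in both libraries. The sizes of the separate sums depend on the total: ribosomal genes took 35.8% and 34.5% of B cell UMIs but 45.4% and 45.4% in CD8+ T cells, and scaled to UMIs without ribosomal, mitochondrial and immunoglobulin genes, the mitochondrial ratio of B over CD8+ T cells became 0.07 and 0.01 and the nuclear ratio -0.26 and -0.31. The direction of each held.

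The mitochondrial excess in B cells was not even across complexes. Against all T cells the log2 ratio was 0.35 and 0.32 for the complex I genes, 0.44 and 0.34 for mt-Cytb, 0.25 and 0.23 for complex IV and 0.17 and 0.13 for complex V. mt-Nd5, a proton-pumping core subunit, had the highest single ratio, at 589 and 613 CPM in B cells and 405 and 414 in T cells (log2 ratio 0.53 and 0.55), and mt-Co1 (0.16 and 0.16) and mt-Atp6 (0.17 and 0.13) the lowest. Of the 13 mitochondrial genes 6 were higher in B cells by 0.32 log2 units or more in each library. Of all tested genes 18.0% (OVA) and 19.7% (C4) were. All 13 mitochondrial genes were above 0 (share of all genes not counted by this measure).

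Of the 76 nuclear subunits, 1 was higher in B than in T cells by that size in OVA and 2 in C4, and 5 were lower in each library, where 15.0% and 14.5% of all tested genes were lower. The one higher in both libraries was Ndufs8 (ENSMUSG00000059734), an iron-sulfur subunit of complex I, with 111 and 121 CPM in B cells and 66.5 and 72.7 in T cells, a log2 ratio of 0.66 and 0.67. The 5 lower in both were Cox7a2l, Ndufv3, Ndufa10, Atp5h and Atp5j2. Atp5h and Atp5j2 belong to the peripheral stalk and membrane part of ATP synthase, with log2 ratios of -0.42 and -0.42, and -0.41 and -0.38. Ndufv3 and Ndufa10, accessory subunits of complex I, had -0.57 and -0.62, and -0.53 and -0.60.

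Cox7a2l (ENSMUSG00000024248, chr17:83501918-83517330, GRCm38, minus strand), whose protein, also called SCAF1, joins complexes III and IV into supercomplexes, had the lowest ratio among nuclear subunits in both libraries. Its levels were 406 (OVA) and 398 (C4) CPM in B cells, 657 and 671 in CD4+ T cells and 676 and 679 in CD8+ T cells. The log2 ratio of B over all T cells was -0.72 (-0.77 to -0.69) and -0.76 (-0.81 to -0.73). Cox7a2, its paralog in the assembled complex IV, did not follow, with 227 and 213 in B cells and 228 and 221 in T cells. The ratio of Cox7a2l to Cox7a2 UMIs was thus 1.79 and 1.87 in B cells and 2.96 and 3.07 in T cells. Mice of the C57BL/6 background are known to carry a shortened form of the Cox7a2l protein, and a 3′ count does not show which form was made.

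Across the 76 nuclear subunits, the B over T ratios of the 2 libraries gave Pearson's r of 0.94 and Spearman's rho of 0.88, with a median absolute difference of 0.04 log2 units. The libraries are separate pools of mice, but genes are not independent replicates, and this is given as a description.

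Tested over both libraries with the library as pair (edgeR's quasi-likelihood test with TMM scaling, 1 residual degree of freedom, Benjamini-Hochberg adjustment over all genes), 38 of 77 nuclear subunits were lower and 2 higher in B than in T cells at an adjusted p under 0.05, where 31.2% and 31.2% of the 11462 genes tested were. Of the 13 mitochondrial genes 10 were higher and 0 lower. Cox7a2l had a log2 ratio of -0.83 in this edgeR fit (adjusted p = 3.38e-07, lower in 2 of 2 libraries), Ndufs8 one of 0.66 (adjusted p = 6.27e-07) and mt-Nd5 one of 0.47 (adjusted p = 1.90e-05). mt-Co1, mt-Atp6 and mt-Co3 did not pass (edgeR adjusted p = 0.315, 0.422 and 0.0742). The scaling bears on these counts: on totals without TMM, 26 of 77 nuclear subunits were lower and 7 higher, and all 13 mitochondrial genes were higher. Of all 11462 genes, 3134 were then lower and 4330 higher, and their median was 0.09 in place of 0.01. The 26 of 77 lower lie near the share of all genes. The p-values rest on the spread between 2 pools that also differ in treatment.

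Taken over all depths, cells with a Mki67 UMI held more nuclear and fewer mitochondrial respiratory chain UMIs than cells of their lineage without one. Within bins of depth, as described below, the nuclear difference varied in size and was not detectable in B cells of low depth. The mitochondrial difference took both signs across these bins. Mki67 is the proliferation marker Ki-67, and 4 other cell cycle genes (Top2a, Birc5, Ccna2, Cdk1) summed to 790 to 1307 CPM in the cycling groups and 9.95 to 12.0 in the B and T cells without Mki67. The nuclear share was 2.28% and 2.29% in cycling B cells against 1.50% and 1.50% (log2 ratio 0.61 and 0.61, OVA and C4), and 2.68% and 2.63% in cycling T cells against 1.60% and 1.60% (0.75 and 0.71). The mitochondrial share was lower, with log2 ratios of -0.50 and -0.23 in B cells and -0.37 and -0.29 in T cells. The filter on mitochondrial UMIs acts on this measure: without it the ratios were -0.43 and -0.06 in B cells and -0.27 and 0.018 in T cells, so that the direction turned in T cells of C4. Ribosomal genes took 43.3% and 43.5% of UMIs in T cells and 31.1% and 30.2% in cycling T cells. On the total without ribosomal, mitochondrial and immunoglobulin genes the nuclear ratio in T cells was 0.44 and 0.37 and the mitochondrial one -0.68 and -0.63, and in B cells they were 0.58 and 0.57, and -0.52 and -0.27. The nuclear to mitochondrial ratio was 0.769 and 0.617 in cycling B cells and 0.990 and 0.871 in cycling T cells.

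Over cells of all depths, most nuclear subunits moved together. In B cells 61 (OVA) and 62 (C4) of 76 were higher in cycling cells by 0.32 log2 units or more, where 21.8% and 21.6% of all tested genes were; in T cells 66 and 67 were, where 31.9% and 34.1% of all genes were. In those comparisons 2 and 0 subunits were lower in B cells (26.3% and 25.7% of all genes) and 3 and 2 in T cells (17.9% and 17.9%). The share of subunits that were higher was thus above the share of all genes in each of the 4 comparisons. Higher in all 4 were 56 of 76: 25 of 36 in complex I, 2 of 4 in complex II, 6 of 8 in complex III, 11 of 12 in complex IV and 12 of 16 in complex V. The share of all genes higher in all 4 at once was not counted, so this number and its split by complex are descriptions. The comparisons of B and T cells use separate cells, and those of OVA and C4 separate libraries. These counts carry the difference in depth given below. In cells of 3000 to 8000 UMIs, members of any set higher in cycling B cells numbered 12 (OVA) and 15 (C4), against 62 and 65 in all cells kept. Members lower there numbered 24 in C4, against 4, and in OVA stayed within 1.5 times of 15. The share of all genes past this size in that window, which holds few cycling B cells, was not counted.

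Over both libraries, in the same paired edgeR test, 64 of 76 nuclear subunits were higher and 0 lower in cycling B cells at an adjusted p under 0.05, where 18.7% and 14.0% of 10477 genes were. In T cells 61 of 77 were higher and 3 lower, where 24.0% and 21.0% of 10495 genes were, and the 3 were Cox7a2l, Ndufa6 and Uqcrh. Of the mitochondrial genes 12 of 13 were lower in each lineage and 0 higher. On totals without TMM the nuclear counts were 62 higher in B and 71 higher and 2 lower in T cells, without Uqcrh. Then 9 and 10 mitochondrial genes were lower. Of all genes, 1671 were higher and 1426 lower of 10477 in B, and 3340 and 1554 of 10495 in T cells. The median of all genes was then -0.11 in place of -0.05 in B and 0.15 in place of -0.05 in T cells. This test does not remove the difference in depth between cycling and other cells given below.

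Ndufb8, an accessory subunit of complex I, was among the highest ratios and went from 104 (OVA) and 113 (C4) CPM in B cells to 235 and 252 in cycling B cells, and from 92.3 and 87.4 in T cells to 305 and 302 in cycling T cells. Its log2 ratios were 1.10 and 1.10 in B and 1.62 and 1.68 in T cells. It overlaps another gene model on its strand, so that its count is less certain. Ndufs5, in the intermembrane face of complex I, went from 104 and 99.6 to 225 and 219 in B cells and from 99.6 and 101 to 226 and 209 in T cells. Atp5j, the F6 coupling subunit of ATP synthase, went from 233 and 234 to 468 and 479 and from 260.2 and 258 to 575 and 542. In complex III, Uqcr11 went from 111 and 112 to 260.3 and 207 in B cells, and in complex IV, Cox5b from 264 and 254 to 445 and 508. Atp5j2 went from 228 and 219 to 503 and 416 in B cells, Atp5g3 from 163 and 175 to 346 and 316, Ndufa1 from 102 and 105 to 229.97 and 165, and Ndufc2 from 105 and 114 to 189.6 and 240.5.

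Succinate dehydrogenase was split. Sdhb went from 89.1 and 94.0 CPM in B cells to 155 and 172 in cycling B cells and from 93.3 and 92.6 to 209 and 200 in T cells, and Sdhd from 43.9 and 47.3 to 72.5 and 81.3 and from 42.9 and 45.3 to 100.4 and 110.5. Sdha, which holds the active site, stayed at 84.9 and 87.0 in cycling B cells and 80.0 and 109 in cycling T cells, with log2 ratios of -0.01, -0.15, -0.16 and 0.24 (intervals -0.24 to 0.21, -0.52 to 0.16, -0.46 to 0.08, -0.00 to 0.51). Ndufa7, of complex I, had log2 ratios of 0.07 to 0.22. The assembly factors were mixed, with 1 and 3 of 8 higher in cycling B cells (21.8% and 21.6% of all genes) and 4 and 5 in cycling T cells (31.9% and 34.1%); Ndufaf2 went from 19.5 and 16.7 to 51.2 and 52.8 in T cells, and Ndufaf4 from 59.1 and 53.8 to 44.0 and 45.4.

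Only 3 nuclear subunits lay below 0 in all 4 comparisons (share of all genes not counted): Uqcrh, Ndufa6 and Cox7a2l. Uqcrh had log2 ratios of -0.19 and -0.01 in B cells and -0.07 and -0.14 in T cells. Ndufa6, an accessory subunit of complex I, had -0.43 and -0.22, and -0.38 and -0.60. Cox7a2l was lowest in T cells, from 674 and 679 CPM to 335 and 309 (-0.99, interval -1.14 to -0.88, and -1.11, -1.29 to -0.99), and in B cells from 406 and 398 to 322 and 369.9 (-0.32 and -0.10). Cox7a2 went the other way, from 228 and 221 to 499 and 499 in T cells and from 227 and 213 to 454 and 410.0 in B cells. The ratio of Cox7a2l to Cox7a2 was thereby 0.671 and 0.620 in cycling T cells against 2.96 and 3.07 in non-cycling ones. In cycling B cells it was 0.709 and 0.902 against 1.79 and 1.87. These ratios were taken over cells of all depths, and values within bins of depth are given below.

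**Figure D4:**
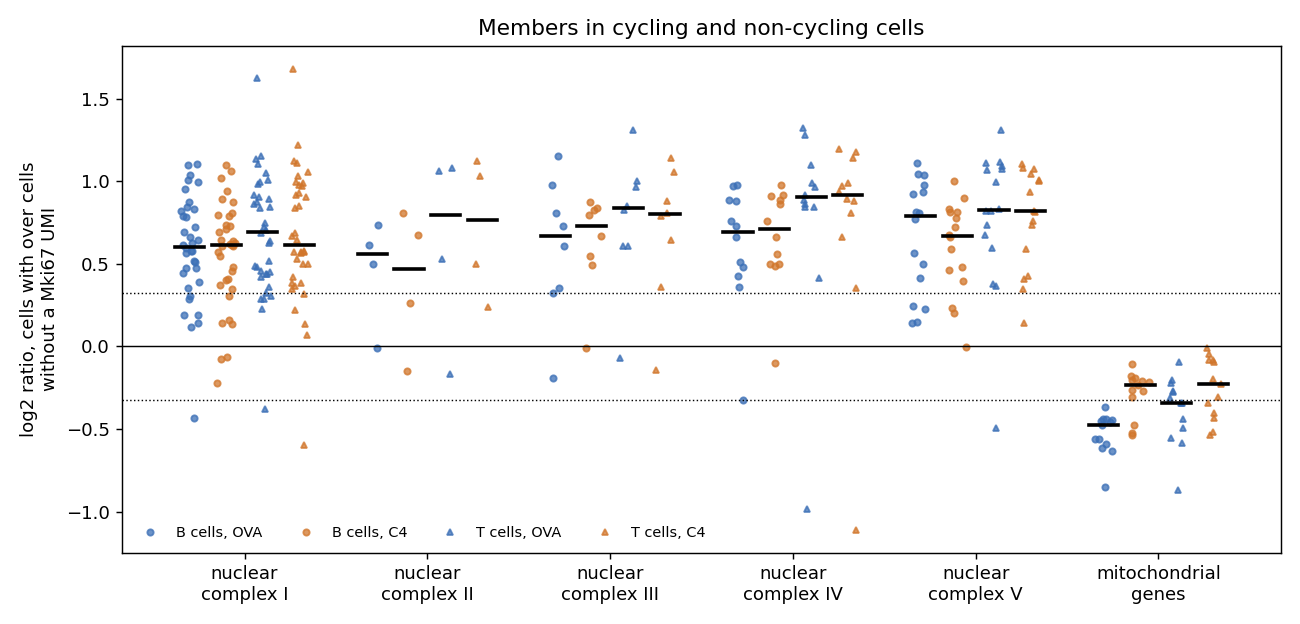
Log2 ratio of each member's level in cells with over cells without a Mki67 UMI (y axis), in B cells (circles) and T cells (triangles) of the OVA (blue) and C4 (orange) libraries, by complex for the 76 nuclear subunits and for the 13 mitochondrial genes. Black bars are medians and dotted lines mark 0.32 in either direction; 56 of 76 nuclear subunits are above the upper line in all 4 comparisons (share of all genes not counted), the low triangles in complex IV are Cox7a2l at -0.99 and -1.11, and the mitochondrial genes lie below 0.

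Of the 13 mitochondrial genes, all lay below 0 in all 4 comparisons over cells of all depths (share of all genes not counted). By 0.32 log2 units or more 13 (OVA) and 3 (C4) were lower in cycling B cells, where 26.3% and 25.7% of all genes were, and 7 and 5 in cycling T cells, where 17.9% and 17.9% were, and 0 were higher in any. The 3 of 13 in cycling B cells of C4 are no more than the share of all genes. mt-Nd2 went from 2505 and 2484 CPM to 1384 and 1721 in B cells (-0.85 and -0.53) and from 2101 and 2111 to 1144 and 1473 in T cells (-0.87 and -0.52). mt-Nd5 had -0.61 and -0.54 in B cells and -0.55 and -0.54 in T cells. mt-Nd4 went from 2115 and 2152 to 1431 and 1783 in B cells (-0.56 and -0.27). In cycling B cells of OVA mt-Nd4l stood at -0.59 and mt-Atp6 at -0.56, and in those of C4 mt-Atp8 stood at -0.47, mt-Co1 at -0.27 and mt-Cytb, the smallest decrease, at -0.11.

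Depth bears on all of this. Cycling cells held median depths of 9944 to 16832 UMIs against 4356 to 6753 in non-cycling B and T cells. Within the cycling groups the nuclear share was higher in cells with more UMIs, with Spearman rho of 0.58 and 0.54 across 118 and 59 B cells and 0.67 and 0.74 across 86 and 60 T cells, whereas in the non-cycling groups rho lay between 0.03 and 0.18. In cells of 4000 to 8000 UMIs the nuclear log2 ratio of cycling over non-cycling cells was -0.01 (interval -0.09 to 0.06) and 0.03 (-0.06 to 0.12) in B cells, with 17 and 12 cycling cells, and 0.22 (0.16 to 0.27) and 0.10 (0.02 to 0.18) in T cells, with 23 and 14. In cells of 8000 to 16000 UMIs it was 0.27 and 0.37 in B and 0.53 and 0.28 in T cells, and from 16000 to 64000 UMIs 0.58 and 0.60 in B and 0.49 and 0.43 in T cells. Within both bins above 8000 UMIs the nuclear share was thus higher in cycling cells in every comparison, and in B cells of 4000 to 8000 UMIs no difference was detectable. The bins are wide and depth was not equal within them: above 8000 UMIs the cycling cells had the higher median depth in each of the 8 comparisons, from 10141 against 9638 to 29705.5 against 17375 UMIs.

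The mitochondrial decrease did not hold within these bins in B cells. There its log2 ratio was 0.10 and -0.05 at 4000 to 8000 UMIs, -0.03 and 0.11 at 8000 to 16000, and 0.05 and -0.28 at 16000 to 64000. In T cells it was -0.08 and 0.05, -0.23 and -0.05, and -0.27 and -0.21. The non-cycling B cells of 16000 to 64000 UMIs held 2.57% mitochondrial UMIs in OVA (27 cells) and 3.91% in C4 (34 cells). Which cell types these are was not tested. Thinned to 2000 UMIs in every cell, which gives each cell equal weight, the nuclear ratios were 0.44 and 0.41 in B and 0.62 and 0.57 in T cells, and the mitochondrial ratios -0.30 and -0.04, and -0.20 and -0.17. Without cells with a Jchain UMI the nuclear ratio in B cells was 0.38 and 0.46 and the mitochondrial ratio -0.15 and -0.03.

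**Figure D5:**
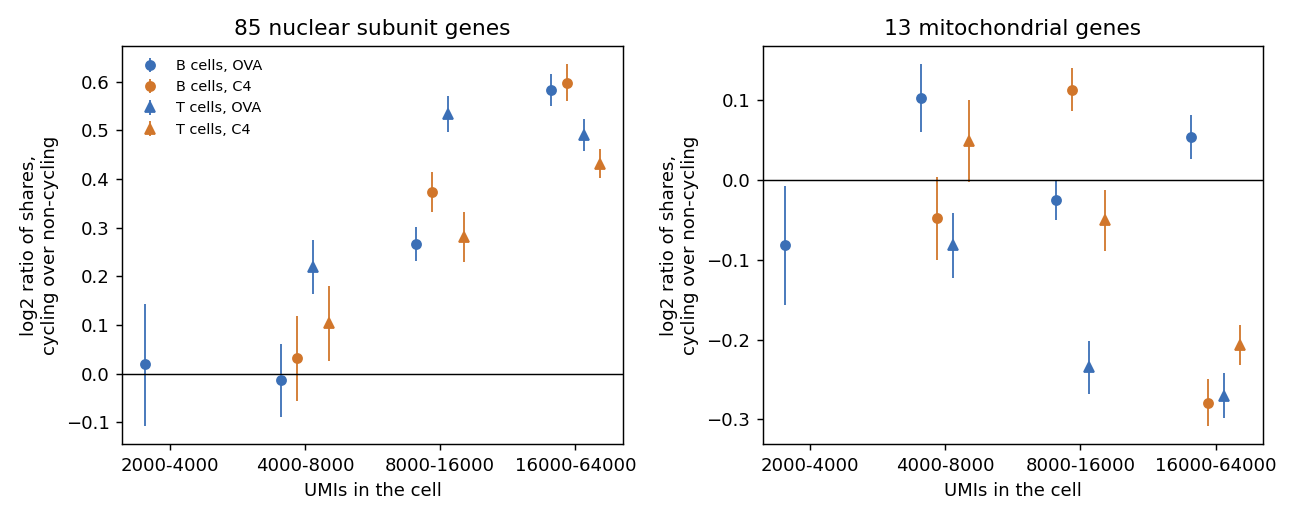
Log2 ratio of the summed share in cycling over non-cycling cells (y axis) within bins of UMIs per cell (x axis), for the nuclear subunits (left) and the mitochondrial genes (right); circles are B cells, triangles T cells, blue OVA, orange C4, and bars 95% counting intervals, shown for bins with at least 10 cells on each side. The nuclear ratio lies between -0.01 and 0.22 at 4000 to 8000 UMIs and between 0.43 and 0.60 above 16000, while the mitochondrial ratio takes both signs.

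The single members behaved differently within the depth bins. Ndufs5 was higher in cycling cells in all 4 comparisons in each of the 3 depth bins, with log2 ratios of 0.70 to 0.95, 0.32 to 0.98 and 0.49 to 1.05. At 4000 to 8000 UMIs the cycling groups held only 13 to 24 UMIs of this gene. Its counting interval included 0 in T cells of C4 at 4000 to 8000 UMIs (-0.22 to 1.48). It also did so in B cells of OVA at 8000 to 16000 (-0.11 to 0.74). Ndufb8 and Atp5j were higher in all 4 above 8000 UMIs (0.50 to 1.34, and from 0.62 upwards). At 4000 to 8000 UMIs 3 of 4 ratios of each lay above 0. There the cycling groups held only 8 to 18 UMIs of Ndufb8, and its intervals all included 0 (such as -0.28 to 1.15 in T cells of OVA). For Atp5j only the interval in T cells of OVA lay above 0 (0.14 to 0.94). mt-Nd2 was lower in all 4 comparisons in each bin, between -1.23 and -0.05. At 4000 to 8000 UMIs its interval lay below 0 in T cells of OVA alone (-0.64 to -0.26). At 8000 to 16000 UMIs it included 0 in B cells of C4 (-0.23 to 0.02). mt-Nd5 did not stay lower: 3 of 4 ratios lay above 0 at 4000 to 8000 UMIs (-0.02 to 0.20). At 8000 to 16000 UMIs 1 did (-0.98 to 0.12). Above 16000 UMIs mt-Nd5 was lower in all 4 (-0.87 to -0.12), with an interval that included 0 in B cells of OVA (-0.35 to 0.11). Cox7a2l in T cells was lower in each bin, from -0.97 to -0.02, with 414 and 499.9 CPM in non-cycling and 276 and 256 in cycling T cells above 16000 UMIs. Its interval included 0 in T cells of C4 at 4000 to 8000 UMIs (-0.43 to 0.35) and of OVA at 8000 to 16000 (-0.50 to 0.01). In B cells Cox7a2l took both signs. Cox7a2 had ratios between -0.20 and 0.22 at 4000 to 8000 UMIs, 2 of 4 above 0, and each interval included 0. T cells of that bin held 703 and 718 CPM of Cox7a2l without and 524 and 706 with Mki67 (OVA and C4). For Cox7a2 these levels were 223 and 213, and 231 and 248. Cox7a2 was higher in all 4 comparisons at 8000 to 16000 UMIs (0.31 to 0.93) and above (0.81 to 1.11). Uqcrh was above 0 in all 4 comparisons over 16000 UMIs, and Ndufa6 took both signs in every bin, so their decrease did not hold within the bins. Exactly 1 Mki67 UMI was held by 43 of the 118 and 31 of the 59 cycling B cells and by 35 of the 86 and 26 of the 60 cycling T cells.

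The genes around the chain were counted from lists of mitochondrial functions. Between libraries 0 of the 87 list genes with a value in each lineage passed 0.32 log2 units in the same direction in all 3, and of 8062 genes of any kind with a value in each 1 (0.0124%) was higher and 38 (0.471%) lower in all 3. In a single lineage 1 list gene passed: Cox10, which makes heme for complex IV, at 26.4 and 19.0 CPM in CD4+ T cells (-0.33). Of all genes 21.8% and 21.6% (OVA and C4) were higher and 26.3% and 25.7% lower in cycling B cells, and 31.9% and 34.1% higher and 17.9% and 17.9% lower in cycling T cells, and the list counts below are to be read against these shares. Between cycling and non-cycling cells, the electron and metabolite carriers had 6 of 8 genes higher in OVA and 8 in C4 B cells and 8 and 8 in T cells, among them Cycs, cytochrome c (log2 ratios 1.02, 0.85, 1.32 and 1.17), Cyc1, the heme subunit of complex III (0.78, 0.65, 1.03 and 1.02), and Vdac1, an outer membrane channel (0.93, 1.02, 1.31 and 1.36). Of 12 mitochondrial translation genes 8 were higher in cycling B cells of each library and 9 and 11 in T cells, and of 13 genes of the citric acid cycle 7 in each. The 12 genes of mitochondrial transcription and replication had 1 to 4 higher; Tfam, which packages and helps transcribe mitochondrial DNA, was at -0.37 and -0.30 in B cells and 0.60 and 0.56 in T cells. Of 9 transcription factors of respiratory genes none was higher in cycling B cells and 3 and 5 were lower, Myc among them (-0.81 and -1.16) and Esrra (-0.64 and -0.54). Esrra held only 6.4 and 9.2 CPM in cycling B cells, less than the 10 CPM added. In cycling T cells 1 and 2 of the 8 with a value were higher, Gabpb1 in both libraries (0.56 and 0.36). There 1 was lower in each library, Ppargc1b (-0.49 and -0.79), at only 7.2 and 4.1 CPM in cycling T cells. Of 10 genes of import and the inner membrane 5 and 5 were higher in B and 7 and 6 in T cells, of 20 other assembly factors 2 and 3, and 8 and 8, and of 5 redox defence genes 2 and 3, and 3 and 2. The counts of the transcription and replication genes and of the other assembly factors lie near or below the shares of all genes. So do those of transcription factors lower in OVA B cells or called in T cells, and of redox defence genes higher in C4 T cells. None of these counts is a result about those lists. These ratios carry the same differences in depth as those of the members, which were not removed here. The nuclear RNA Malat1 was also lower in cycling cells, at 1.36% and 1.05% of UMIs in B cells against 2.30% and 2.21%.

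The 56 subunits that were higher in all 4 cycling comparisons included 46 with a promoter window, of which 12 held the NRF1 core and 25 at least 1 of the 3 motifs; of the other 23 windows 4 and 9 did. The other 23 include Cox6b2, Cox7a1, Cox7b2 and Cox8b, which had too few UMIs between libraries to be compared there and held none of the motifs. These are counts in a sample of members and no difference was tested.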

How the data were processed

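Total MedLN cells of 2 libraries, OVA and C4, were analysed. The deposited files hold counts, whole numbers of UMIs per gene and cell barcode, which the authors made from 10x Genomics 3′ reads with Cell Ranger 6.0.1 and the mm10 genome, per the submitters' processing notes. Counting was not repeated here, and 0 columns lacked a sample. A cell was left out at over 10% mitochondrial UMIs or under 200 genes, or when its Scrublet doublet score ranked in the top 0.8% for each 1000 cells of its library. Groups were set by at least 1 UMI of the marker genes. UMIs were summed per group and library. Single genes were compared as log2 of CPM plus 10 where both sums together held 50 UMIs or more, and called at 0.32 log2 units. Sums were compared as ratios of shares without an added value. With 1 library per condition there was no test between conditions. B and T cells, and cycling and other cells, were tested over both libraries with the library as pair, in edgeR's quasi-likelihood test with TMM scaling on genes with 50 UMIs or more over the 4 sums; this test was added after the values were seen. Intervals are exact at 95% (Poisson for levels and shares of UMIs, binomial for shares of cells, conditional binomial for ratios). They cover counting error only, and for single genes refer to the ratio without the added value.

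Genes were named by rule: all mitochondrial genes, the highest nuclear subunit of each complex, the isoform sets, Sdha to Sdhd, and the 5 highest and 5 lowest ratios among members with at least 100 CPM in either group, in C4 over OVA of each lineage and in cycling over non-cycling B cells. Other genes named, such as Cox10, Ndufa7, Ndufaf2, Ndufaf4, Cox7a2 in cycling cells and the list genes, were chosen after their values were seen. The members and the lists were chosen with earlier results of these data known. The groups of Siglech, Jchain and other cells, the depth bins and the alternative without Jchain cells were chosen after the data were seen. Alternatives changed the filters, gates, depth, weighting, scaling, added value and UMI minimum. The ratios, intervals and the paired test were tested on simulated data. Positions come from GENCODE and promoters from RefSeq. Python 3.11.15, scanpy 1.11.5, numpy 2.4.6, scipy 1.17.1, pandas 2.3.3, R 4.3.3 and edgeR 4.0.16 were used.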

Additional observations from a re-analysis of the deposited data

Results flagged for a closer look

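Cells with over 10% mitochondrial UMIs, which were removed before the comparisons, made up 3.58% of the deposited cells in C4 (exact binomial interval 3.21% to 3.99%) and 1.82% in OVA (1.56% to 2.10%). They stand outside the comparisons reported, and their origin was not tested.

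Ndufa2, an accessory subunit of complex I, had a log2 ratio of C4 over OVA of 0.10 in B cells against -0.14 in CD4+ T cells and -0.11 in CD8+ T cells, so that the lineages differed in sign. With 1 library per condition the difference between lineages was not tested.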

How the results depend on the processing

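Values moved by more than counting error, or counts by over 1.5 times, in 130 of the comparisons of sums and counts under an alternative, turned sign in 4 and stayed within it in 226; for single genes the numbers were 61, 10 and 412. The cause was not tested for any of these. No pairing joins C4 and OVA, which have 1 library each, and leaving out a library would leave the paired comparisons of cell groups no residual degree of freedom. Without the pair (no replicate block), 5 of 13 mitochondrial genes were lower in cycling B cells in place of 12 with it, where 1593 of all 10477 genes were. The other counts of nuclear and mitochondrial members stayed within 1.5 times. On totals without TMM, 7 nuclear subunits in place of 2 were higher in B than in T cells, where 4330 of all 11462 genes were. Depth limits single members in the cycling groups, where counting intervals are wide. The values below are log2 ratios unless they are numbers of members. For those numbers, the share of all genes under the same alternative was not counted.

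With at most 5% mitochondrial UMIs per cell, the mitochondrial share of C4 over OVA had log2 ratios of 0.029 in B cells, 0.053 in CD4+ cells and 0.055 in CD8+ cells. For the limit of 5%, the nuclear to mitochondrial ratio of C4 over OVA had log2 ratios of -0.021 in B cells. With the limit of 5%, the mitochondrial share in B over T cells was 0.19 over CD4+ cells in OVA, 0.15 over CD8+ cells in OVA, 0.16 over CD4+ cells in C4 and 0.12 over CD8+ cells in C4. For the limit of 5%, the nuclear share in B over T cells was -0.095 over CD4+ cells in OVA, -0.058 over CD8+ cells in OVA, -0.11 over CD4+ cells in C4 and -0.053 over CD8+ cells in C4. With the limit of 5%, the mitochondrial share in cycling over non-cycling cells was -0.52 in B cells of OVA and -0.28 in B cells of C4. For the limit of 5%, the nuclear share in cycling over non-cycling cells was 0.64 in B cells of C4. Without the mitochondrial filter, the mitochondrial share of C4 over OVA had log2 ratios of 0.055 in B cells, 0.079 in CD4+ cells and 0.076 in CD8+ cells. For the unfiltered cells, the nuclear to mitochondrial ratio of C4 over OVA had log2 ratios of -0.053 in B cells. With the unfiltered cells, the mitochondrial share in B over T cells was 0.29 over CD4+ cells in OVA, 0.27 over CD8+ cells in OVA and 0.25 over CD8+ cells in C4. For the unfiltered cells, the mitochondrial share in cycling over non-cycling cells was -0.43 in B cells of OVA, -0.27 in T cells of OVA, -0.064 in B cells of C4 and 0.018 (reversed) in T cells of C4. With the unfiltered cells, the nuclear share in cycling over non-cycling cells was 0.69 in T cells of C4. For the unfiltered cells, the members lower in cycling B cells numbered 2 in C4. Without doublet removal, the mitochondrial share of C4 over OVA had log2 ratios of 0.052 in B cells. For the cells with doublets, the members lower in C4 numbered 1 in CD4+ cells. With the cells with doublets, the mitochondrial share in cycling over non-cycling cells was -0.46 in B cells of OVA and -0.30 in B cells of C4. For the cells with doublets, the nuclear share in cycling over non-cycling cells was 0.59 in B cells of OVA. With the cells with doublets, the members lower in cycling B cells numbered 8 in C4. With at least 2 UMIs of each gate marker, the mitochondrial share of C4 over OVA had log2 ratios of 0.043 in CD4+ cells and 0.052 in CD8+ cells. For the stricter gates, the nuclear share of C4 over OVA had log2 ratios of 0.0037 in CD4+ cells. With the stricter gates, the members higher in C4 numbered 3 in CD4+ cells. For the stricter gates, the nuclear to mitochondrial ratio of C4 over OVA had log2 ratios of -0.046 in CD8+ cells. With the stricter gates, the mitochondrial share in B over T cells was 0.27 over CD4+ cells in OVA, 0.28 over CD4+ cells in C4 and 0.24 over CD8+ cells in C4. For the stricter gates, the nuclear share in B over T cells was -0.20 over CD4+ cells in OVA, -0.094 over CD8+ cells in OVA, -0.20 over CD4+ cells in C4 and -0.10 over CD8+ cells in C4. With the stricter gates, the mitochondrial share in cycling over non-cycling cells was -0.62 in B cells of OVA, -0.46 in T cells of OVA and -0.31 in T cells of C4. For the stricter gates, the nuclear share in cycling over non-cycling cells was 0.68 in B cells of OVA, 0.81 in T cells of OVA, 0.67 in B cells of C4 and 0.78 in T cells of C4. In cells with 3000 to 8000 UMIs, the mitochondrial share of C4 over OVA had log2 ratios of 0.029 in B cells, 0.088 in CD4+ cells and 0.057 in CD8+ cells. For the depth window, the nuclear to mitochondrial ratio of C4 over OVA had log2 ratios of -0.030 in B cells and -0.092 in CD4+ cells. With the depth window, the nuclear share of C4 over OVA had log2 ratios of -0.0035 (reversed) in CD4+ cells. For the depth window, the members lower in C4 numbered 1 in CD4+ cells. With the depth window, the mitochondrial share in B over T cells was 0.31 over CD4+ cells in OVA and 0.25 over CD4+ cells in C4. For the depth window, the nuclear share in B over T cells was -0.10 over CD4+ cells in OVA, -0.064 over CD8+ cells in OVA, -0.10 over CD4+ cells in C4 and -0.069 over CD8+ cells in C4. With the depth window, the mitochondrial share in cycling over non-cycling cells was 0.044 (reversed) in B cells of OVA, -0.069 in T cells of OVA, -0.036 in B cells of C4 and 0.046 (reversed) in T cells of C4. For the depth window, the nuclear share in cycling over non-cycling cells was 0.010 in B cells of OVA, 0.22 in T cells of OVA, 0.031 in B cells of C4 and 0.11 in T cells of C4. With the depth window, the members higher in cycling B cells numbered 12 in OVA and 15 in C4. For the depth window, the members lower in cycling B cells numbered 24 in C4. With each cell thinned to 2000 UMIs, the mitochondrial share of C4 over OVA had log2 ratios of 0.032 in B cells and 0.049 in CD8+ cells. For the thinned cells, the nuclear to mitochondrial ratio of C4 over OVA had log2 ratios of -0.031 in B cells and -0.039 in CD8+ cells. With the thinned cells, the members higher in C4 numbered 3 in CD4+ cells. For the thinned cells, the members lower in C4 numbered 5 in CD4+ cells and 1 in CD8+ cells. With the thinned cells, the mitochondrial share in B over T cells was 0.30 over CD4+ cells in OVA and 0.24 over CD8+ cells in C4. For the thinned cells, the nuclear share in B over T cells was -0.10 over CD4+ cells in OVA and -0.093 over CD8+ cells in C4. With the thinned cells, the mitochondrial share in cycling over non-cycling cells was -0.30 in B cells of OVA, -0.20 in T cells of OVA, -0.037 in B cells of C4 and -0.17 in T cells of C4. For the thinned cells, the nuclear share in cycling over non-cycling cells was 0.44 in B cells of OVA, 0.62 in T cells of OVA, 0.41 in B cells of C4 and 0.57 in T cells of C4. Scaled to UMIs without ribosomal, mitochondrial and immunoglobulin genes, the mitochondrial share of C4 over OVA had log2 ratios of 0.0078 in B cells and 0.082 in CD4+ cells. For the reduced total, the nuclear share of C4 over OVA had log2 ratios of -0.037 in B cells and 0.034 in CD4+ cells. With the reduced total, the members higher in C4 numbered 1 in CD4+ cells. For the reduced total, the members lower in C4 numbered 1 in CD4+ cells. With the reduced total, the mitochondrial share in B over T cells was 0.23 over CD4+ cells in OVA, 0.070 over CD8+ cells in OVA, 0.16 over CD4+ cells in C4 and 0.0084 over CD8+ cells in C4. For the reduced total, the nuclear share in B over T cells was -0.17 over CD4+ cells in OVA, -0.26 over CD8+ cells in OVA, -0.24 over CD4+ cells in C4 and -0.31 over CD8+ cells in C4. With the reduced total, the mitochondrial share in cycling over non-cycling cells was -0.52 in B cells of OVA, -0.68 in T cells of OVA, -0.27 in B cells of C4 and -0.63 in T cells of C4. For the reduced total, the nuclear share in cycling over non-cycling cells was 0.58 in B cells of OVA, 0.44 in T cells of OVA, 0.57 in B cells of C4 and 0.37 in T cells of C4. Scaled to UMIs without mitochondrial genes, the nuclear share in B over T cells was -0.11 over CD4+ cells in OVA, -0.068 over CD8+ cells in OVA, -0.12 over CD4+ cells in C4 and -0.072 over CD8+ cells in C4. For the total without mitochondria, the nuclear share in cycling over non-cycling cells was 0.59 in B cells of OVA. With the total without mitochondria, the members lower in cycling B cells numbered 2 in OVA and 1 in C4. With 1 CPM added, the members higher in C4 numbered 3 in CD4+ cells. For the smaller addition, the members lower in C4 numbered 1 in CD4+ cells. Without cells with a Jchain UMI, the mitochondrial share in cycling over non-cycling cells was -0.15 in B cells of OVA and -0.025 in B cells of C4. For the Jchain-free cells, the nuclear share in cycling over non-cycling cells was 0.38 in B cells of OVA and 0.46 in B cells of C4. With the Jchain-free cells, the members lower in cycling B cells numbered 3 in OVA.

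Among single genes the sign turned with at least 2 UMIs of each gate marker, Atp5a1 -0.023 (C4 over OVA CD4), and in cells with 3000 to 8000 UMIs, mt-Nd5 0.021 (cycling B OVA), mt-Nd4l 0.018 (cycling B OVA), mt-Nd4 0.14 (cycling B OVA), mt-Atp6 0.020 (cycling B OVA), Ndufb8 -0.31 (cycling B OVA), mt-Nd5 0.13 (cycling B C4), mt-Co1 0.037 (cycling B C4) and Cox5b -0.29 (cycling B C4), and with each cell thinned to 2000 UMIs, mt-Nd5 0.10 (cycling B C4).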

Other observations

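Further groups of cells, chosen after the data were seen and some of them within the B and T groups, held other shares. Cells with Jchain and Sdc1 or Tnfrsf17 (42 in OVA, 12 in C4) had 1.83% and 2.22% nuclear and 1.90% and 2.09% mitochondrial UMIs, with immunoglobulin genes at 35.2% and 23.2% of UMIs. CD4+ T cells with a Foxp3 UMI, the factor of regulatory T cells, numbered 67 and 64 and had 1.94% and 1.88% nuclear UMIs, against 1.60% and 1.63% in the 853 and 758 without one. Cells with Lyz2 and Csf1r, C1qa or Itgam, genes of myeloid cells, numbered 29 and 18 and had 2.43% and 2.40% nuclear and 2.54% and 2.55% mitochondrial UMIs. Cells with Ncr1, a receptor of natural killer cells, and neither Cd3e nor Cd79a numbered 12 and 28 and had 1.84% and 2.18% nuclear UMIs.

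Among B cells before the mitochondrial filter, those above 20% mitochondrial UMIs numbered 39 and 54 and had median depths of 646 and 727.5 UMIs. Nuclear subunits made up 0.62% and 0.748% of their UMIs outside the mitochondrial genes, against 1.58% and 1.59% in B cells of 2.5% to 5% mitochondrial UMIs.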
